A study of Mus musculus with 4 samples.

Results

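Cytoplasmic ribosomal protein genes encode the proteins that, with ribosomal RNA, form the large and small subunits of the ribosome that translates nuclear mRNA. They are active in nearly every cell, many carry small nucleolar RNA (snoRNA) genes in their introns, and their mRNAs often begin with a terminal oligopyrimidine (TOP) stretch. Runx3 is a Runt domain transcription factor that binds the hexamer TGTGGT, and it is expressed in dendritic cells (DC), T cells and NK cells. Splenic CD4+ DC are conventional DC that present antigen to T cells.

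Runx3 occupancy was measured by ChIP-seq in CD11chiMHCII+CD4+ DC from mouse spleen. The series has 2 immunoprecipitates with a home made Runx3 antibody and 2 input samples of whole cell extract, all from C57BL/6 mice except that the label of 1 input gives C57BL/7. Cells of approximately 15 mice were pooled, crosslinked with 1% formaldehyde, and sequenced with reads of 50 bp from fragments of about 300 bp. Age was not given, and ChIP-seq gives no RNA levels with which to check the cell type by its markers. The deposited list holds 15121 peaks called with MACS2 on the 2 immunoprecipitates together, so the list gives no value per replicate, no spread can be given, and no test was made. The score of a peak is the number MACS2 wrote, in a unit that is not stated, with a list median of 12.1, an upper quartile of 23.2 and a range of 1.33 to 309.3. A gene without a peak is a gene at which none was called at the depth of these samples, which was not analysed here.

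Members were the protein-coding genes of GENCODE M1 on mm9 whose symbol is Rpl or Rps and a digit, or Rplp0, Rplp1, Rplp2 or Rpsa, leaving out 10 Rps6 kinase symbols. A gene counted as having a peak where a peak centre lay within 5 kb of any of its annotated transcription start sites (TSS). The symbol rule gave 138 of 22367 protein-coding genes, and they were of 3 unequal kinds. The core set was 76 genes for the proteins of the mature ribosome, 45 of the large and 31 of the small subunit. A further 53 had pseudogene symbols (with -ps) although the annotation types them as protein-coding, and each of the 53 has a single annotated exon, which was true of 0 of the 76 core genes. The remaining 9 were paralogs and Rps19bp1, which encodes a protein that binds Rps19 and is no ribosomal subunit.

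Runx3 peaks lay at most core ribosomal protein genes. A peak centre was within 5 kb of 53 of the 76 core genes, or 69.7% (Wilson 95% interval 58.7 to 78.9, counting error only), where 31.1% of all protein-coding genes had one. Nearly all of these genes had the peak at the promoter: 51 core genes, or 67.1% (interval 55.9 to 76.6), had a peak centre within 1 kb, against 24.9% of protein-coding genes. The large and small subunits had similar shares, with 32 of 45 genes (71.1%) and 21 of 31 genes (67.7%). Over all 138 members the count was 62, or 44.9% (interval 36.9 to 53.3), and it includes 4 of the 53 genes with pseudogene symbols.

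Promoters of ribosomal protein genes are rich in CpG, and so are the promoters at which Runx3 peaks lay in general. With 250 bp taken on each side of 1 TSS per gene, 71 of the 76 core promoters were CpG-rich (CpG observed over expected of at least 0.6 and GC of at least 50%), against 48.5% of all protein-coding promoters. Among CpG-rich protein-coding genes 48.3% had a peak within 5 kb, and among CpG-poor ones 14.9%. The share of the 71 CpG-rich core genes was 50, or 70.4%. The share of the 5 other core genes was 3, with peaks at Rpl13a, Rpl35 and Rpl4 and none at Rpl10 and Rps15a. The class was read at 1 TSS per gene, and every peak centre of Rpl13a and Rpl35 lay more than 250 bp from it. Within the Rpl13a peaks of 45.20 and 31.38 the CpG ratio was 0.797 and 0.471. Within the Rpl35 peaks of 9.37 and 14.20 it was 0.876 and 0.997. The part of expression level, open chromatin or gene neighbours in the difference between 70.4% and 48.3% was not tested.

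**Figure D1:**
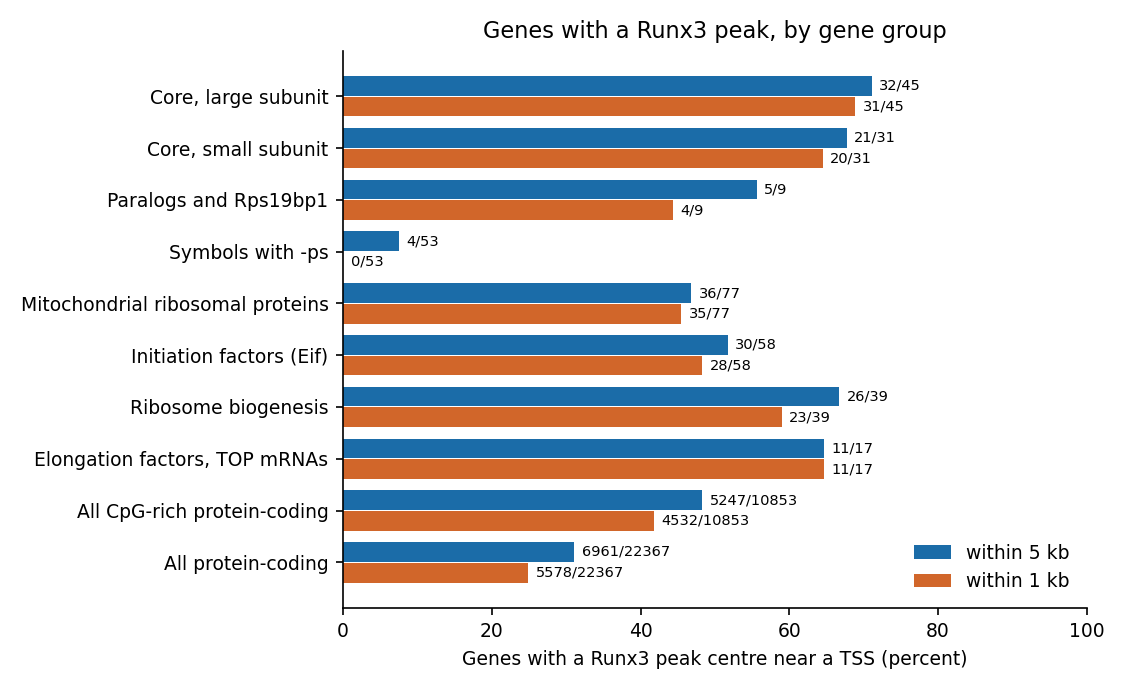
Share of genes with a Runx3 peak centre within 5 kb (blue) or 1 kb (orange) of a TSS, in percent, for kinds of ribosomal protein gene and for other gene groups, with the count of genes beside each bar. Both core subunit groups lie above all protein-coding genes (31.1% and 24.9%), and the genes with -ps symbols lie below them at 7.55% and 0.

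By name, the genes of the large subunit with a peak included Rpl3, Rpl4, Rpl6, Rpl7, Rpl7a, Rpl8, Rpl10a, Rpl11, Rpl12, Rpl13, Rpl13a, Rpl15, Rpl17, Rpl18, Rpl19, Rpl21, Rpl22, Rpl23a, Rpl24, Rpl27, Rpl27a, Rpl28, Rpl29, Rpl30, Rpl31, Rpl35, Rpl35a, Rpl36, Rpl37, Rplp0 and Rplp2. Those of the small subunit included Rps2, Rps3, Rps3a, Rps7, Rps9, Rps12, Rps13, Rps14, Rps15, Rps16, Rps18, Rps19, Rps23, Rps25, Rps27, Rps27a and Rps28. Rpl12 was among the 2 core genes with a peak only beyond 1 kb.

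The peaks were centred closely on the start sites. Within 1 kb there were 54 peaks at the 51 core genes, and 52 of them, or 96.3% (interval 87.5 to 99), had their centre within 250 bp of the TSS, where 73.2% of all peaks within 1 kb of a protein-coding TSS did. The median distance was 66.5 bp, against 107 bp over protein-coding genes. The TSS itself lay inside 50 of the 54 peaks. The centre was upstream of the TSS in 34, downstream in 19 and on it in 1, at Rpl31. The farthest of these centres was 521 bp upstream of Rpl4, where the TSS of Zwilch, a kinetochore gene that starts on the opposite strand, was 10 bp from the centre. In the longest coding transcript 30 of the 54 centres were upstream of the gene, 16 in an exon and 8 in an intron.

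**Figure D2:**
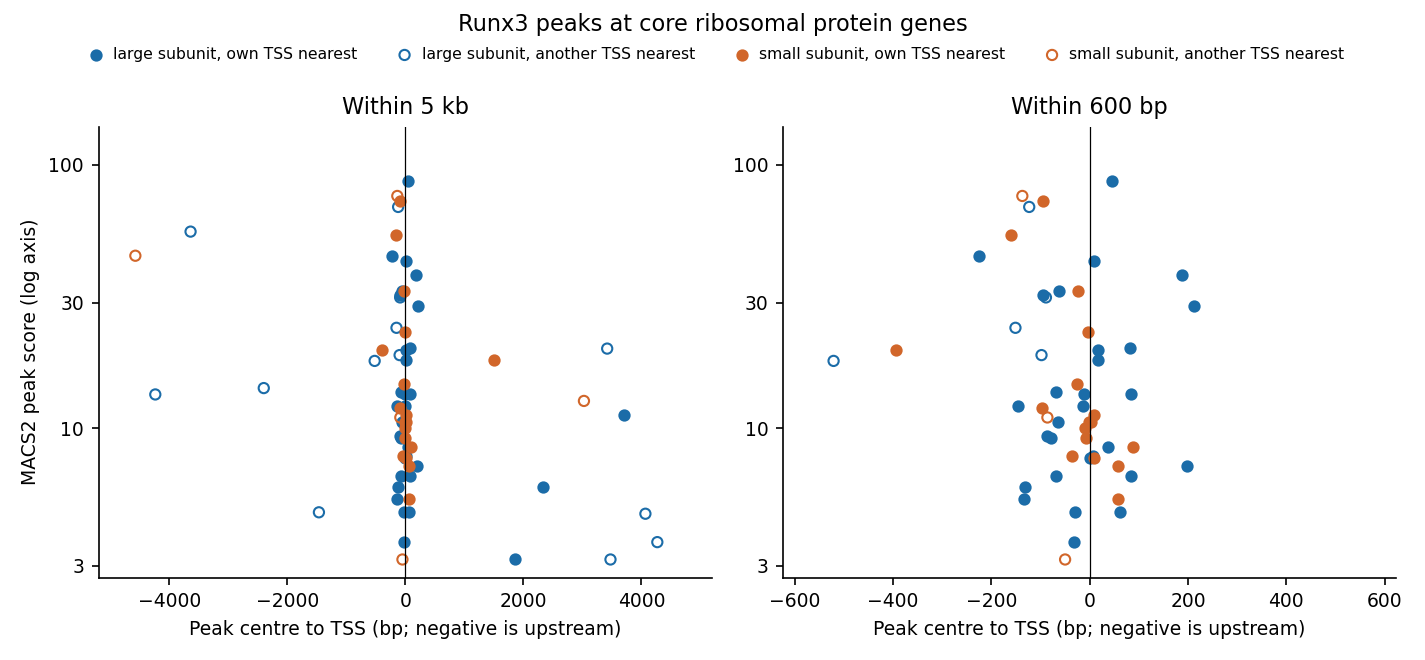
Score of each Runx3 peak (MACS2 score, log axis) against the distance from its centre to the nearest TSS of a core ribosomal protein gene in bp, within 5 kb on the left and within 600 bp on the right. Blue is the large subunit, orange the small, and open circles are peaks for which another gene's TSS was nearer. The peaks gather within 250 bp of the start, and most peaks farther out are open circles.

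In score these promoter peaks were ordinary. The 54 peaks had a median score of 12.1, a middle range of 7.84 to 23.8 and a range of 3.17 to 87.0, and the 5486 peaks within 1 kb of any protein-coding TSS had a median of 12.7, a middle range of 7.2 to 22.3 and a highest score of 264.3. Of the 54, 15 peaks (27.8%) were in the upper quartile of the list, against 24.5% of the 5486. Counted as genes with an upper quartile peak within 5 kb, 15 of 76 core genes (19.7%) had one, against 9.24% of protein-coding genes. The large subunit peaks had a median of 13.4 (n = 34) and the small subunit peaks of 10.8 (n = 20), with ranges that overlapped over nearly their whole length.

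The strongest peak was at Rpl22, an RNA-binding protein of the large subunit needed for the development of alpha-beta T cells. The gene lies at chr4:151699851-151708180 on the plus strand (mm9), and its peak at chr4:151699682-151700363 scored 86.99, was centred 46 bp downstream of the TSS in intron 1 and ranked 252 of 15121. Rps2, a small subunit protein near the mRNA entry channel, followed with 76.25 at chr17:24856585-24857158, centred 137 bp upstream of its nearest TSS. The start of Snhg9, a snoRNA host transcript on the opposite strand, was nearer to that centre, at 39 bp. Rps3a had 72.74 at chr3:85946467-85946970, 94 bp upstream, with no nearer gene.

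Rpl18 had peaks at 2 starts. The peak at the start of its longest coding transcript scored 32.19 at chr7:52970494-52970972, centred 94 bp upstream. The other scored 69.27 at chr7:52972944-52973693, was 123 bp upstream of an alternative start of Rpl18, and lay 46 bp from a start of the sphingosine kinase gene Sphk2. Peaks at 2 starts were also called at Rpl13a, which has a second function in silencing translation of inflammatory mRNAs in myeloid cells. The stronger of the pair, 45.20 at chr7:52384097-52384591, was 226 bp upstream of an internal start and inside intron 6 of the longest coding transcript. The weaker, 31.38, was 89 bp upstream of the outermost start and 74 bp from the TSS of Flt3l, which encodes the growth factor that drives DC development. The peak of 69.27 at Rpl18 and that of 31.38 at Rpl13a cannot be given to a single gene from position. For the other peak of each gene, the ribosomal protein gene had the nearest TSS.

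Rps12 had 54.26 at chr10:23506890-23507463, centred 161 bp upstream. Rpl19, which takes part in a bridge between the subunits, had 43.14, and its centre was 8 bp into exon 1. Rpl30 had 38.27 at 188 bp downstream, in exon 1. Rpl10a, the protein of the L1 stalk, and Rps14, whose human gene is deleted in the 5q- syndrome, shared a score of 33.24 at 63 bp and 23 bp upstream. Each of these peaks covered the TSS, and the ribosomal protein gene was the nearest gene to each.

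Next in order within 1 kb were Rpl37 (29.05), Rpl7a (24.06, with the start of Med22 nearer) and Rps18 (23.19). The weakest of the core promoter peaks were Rps27a (3.17), Rpl29 (3.69), and Rpl6 and Rpl11 (4.79 each). The plot of the strongest promoter peak by gene shows a continuous fall between these ends, with genes of both subunits along its whole length.

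**Figure D3:**
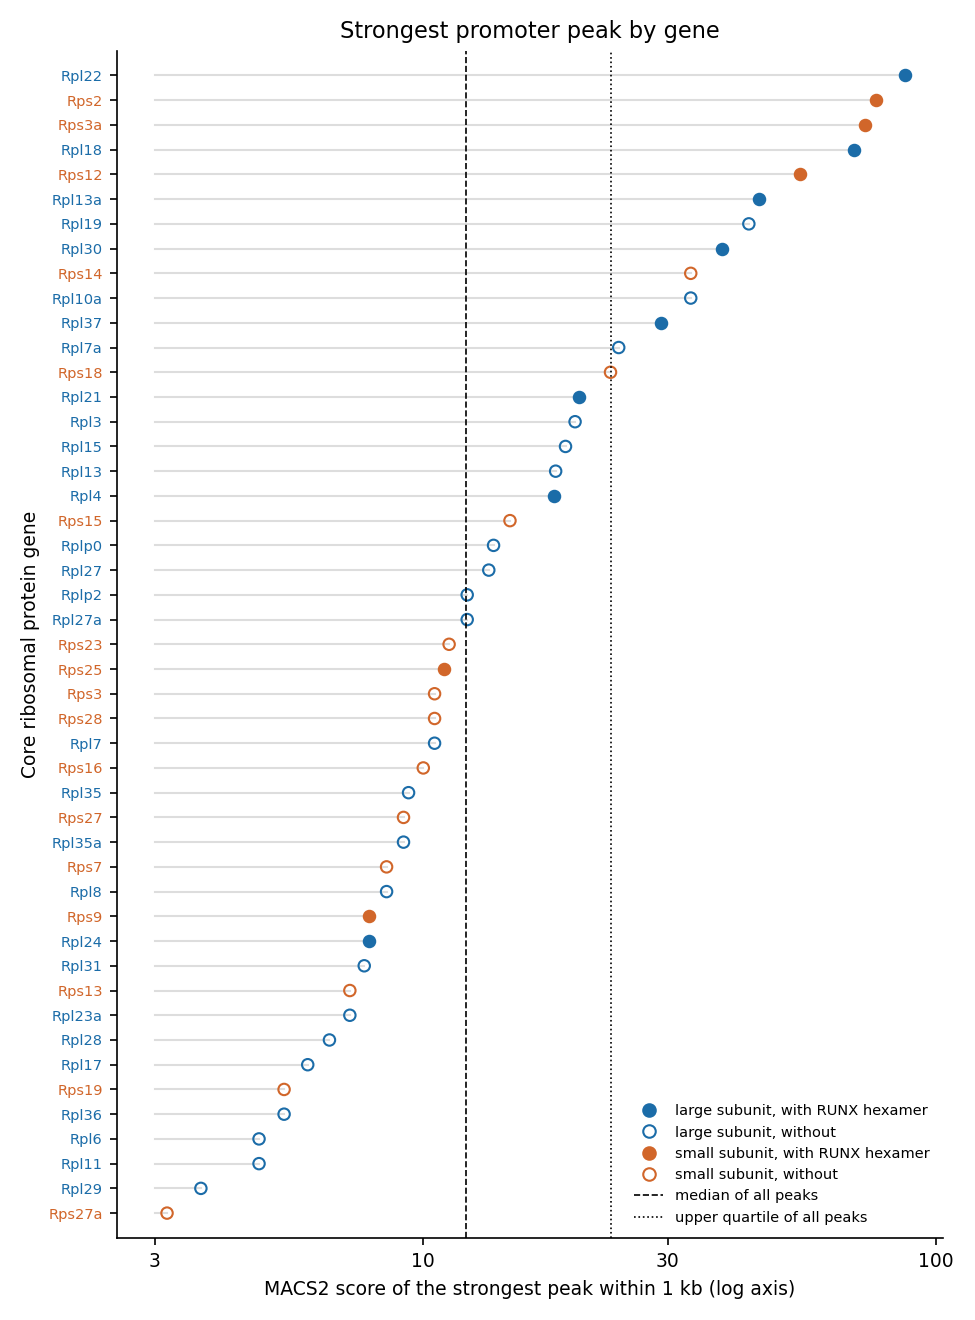
MACS2 score (log axis) of the strongest peak within 1 kb of the TSS for 47 of the 51 core ribosomal protein genes that had one, blue for the large and orange for the small subunit. Filled circles are peaks with the RUNX hexamer, the dashed line is the median (12.1) and the dotted line the upper quartile (23.2) of all 15121 peaks; the 6 highest genes all have filled circles.

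The hexamer TGTGGT, searched on both strands (ACCACA on the other), stood in few of the core promoter peaks but in all of the highest. It was in 14 of the 54 peaks, or 25.9% (interval 16.1 to 38.9), against 33.6% of the 5486 peaks near protein-coding starts and 54% of all 15121 peaks. It was in each of the 6 highest scoring core promoter peaks, in 7 of the 10 highest and in 10 of the 20 highest. The sequences around it are shown for the 8 highest scoring peaks that hold it, each read 5′ to 3′ on the strand of the ribosomal protein gene from the mm9 assembly, with the hexamer in capitals on whichever strand it lay. Where the hexamer is within an annotated exon 30 bases are given, and otherwise up to 40 bases on each side.
Rpl22, chr4:151699989-151700018, plus strand: cgccatggcgccTGTGGTtagtatggctcc
Rps2, chr17:24856956-24856985, plus strand: aagacgcagccaACCACAgcctgcgggtgc
Rps3a, chr3:85946717-85946802, minus strand: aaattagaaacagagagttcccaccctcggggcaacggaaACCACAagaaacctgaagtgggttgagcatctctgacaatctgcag
Rpl18, chr7:52973322-52973351, plus strand: agaaacccaaatTGTGGTagagctccgcgt
Rps12, chr10:23507167-23507252, minus strand: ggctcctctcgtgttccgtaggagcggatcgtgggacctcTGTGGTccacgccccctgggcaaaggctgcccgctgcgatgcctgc
Rpl13a, chr7:52384411-52384496, minus strand: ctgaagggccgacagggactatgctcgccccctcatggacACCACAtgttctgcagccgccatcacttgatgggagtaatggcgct
Rpl30, chr15:34373438-34373523, minus strand: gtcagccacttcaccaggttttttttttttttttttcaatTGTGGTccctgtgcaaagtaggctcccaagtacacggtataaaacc
Rpl37, chr15:5066773-5066858, plus strand: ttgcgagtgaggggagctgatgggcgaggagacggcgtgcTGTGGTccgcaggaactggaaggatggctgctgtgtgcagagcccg

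The hexamer of Rpl22 lay 19 bp from the peak centre and 27 bp downstream of a TSS, in an exon of Rpl22. In Rpl37, whose peak of 1272 bp was the widest of the core set, it lay 11 bp from the centre and 202 bp into the gene. In Rpl18, Rps12 and Rps3a it was 18, 33 and 41 bp from the centre. In Rpl30 it was 273 bp from the centre, near the edge of the peak. The hexamer was within the 200 bp around the centre in 8 of the 54 core promoter peaks (14.8%), against 21.2% of the 5486.

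Peaks with the hexamer scored higher than peaks without it. Scores ran from 7.84 to 87.0 in the 14 core promoter peaks that held it (median 33.7) and from 3.17 to 43.1 in the 40 that did not (median 10.5). The ranges overlapped from 7.84 upward, and Rpl24 and Rps9 held the hexamer at 7.84. Over all peaks within 1 kb of a protein-coding TSS the medians were 15.4 with (n = 1843) and 11.2 without it (n = 3643). Median width went the same way, at 574 bp with and 366 bp without the hexamer in the core set, and at 473 bp and 409 bp over protein-coding starts. The part of width, which gives the hexamer more places to occur, was not tested.

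**Figure D4:**
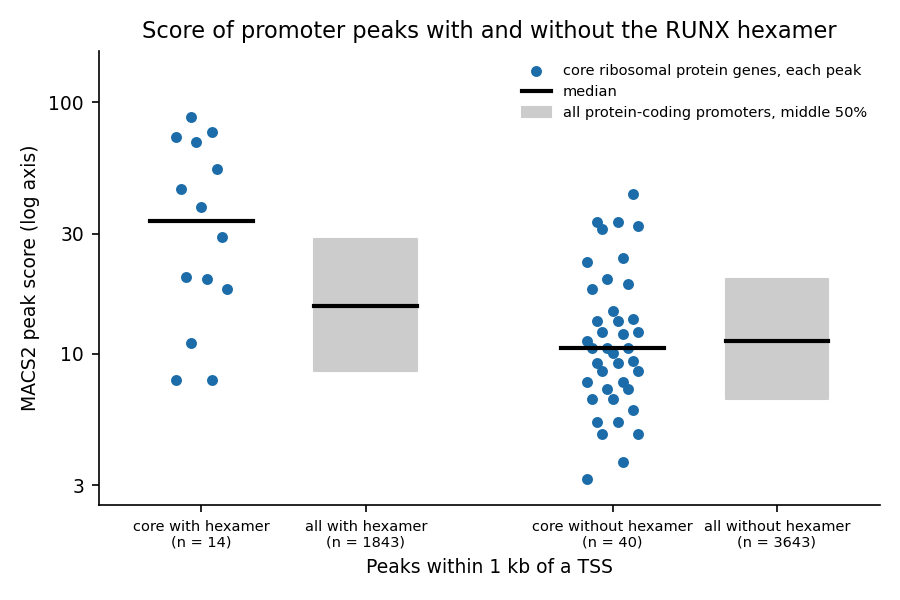
MACS2 score (log axis) of peaks within 1 kb of a TSS, with and without the RUNX hexamer. Points are the peaks at core ribosomal protein genes, grey boxes the middle 50% of peaks at all protein-coding starts, and bars the medians, which are 33.7 and 10.5 for the core set and 15.4 and 11.2 for all protein-coding genes.

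Strong peaks without TGTGGT existed, and those of Rpl19, Rpl10a and Rps14 were the highest. Allowing either C or T at base 1 and base 3 of the hexamer, which takes in TGTGGT itself, raised the share to 33 of 54 peaks (61.1%), against 75.5% of the 5486 near protein-coding starts. For comparison with the sequences above, the stretches that hold CGTGGT, one of these variants, are shown for 3 of the 4 highest peaks without TGTGGT (that of Rps14 is not shown), with the variant in capitals.
Rpl19, chr11:97888384-97888469, plus strand: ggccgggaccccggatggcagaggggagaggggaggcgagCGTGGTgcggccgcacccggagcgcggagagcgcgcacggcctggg
Rpl10a, chr17:28465357-28465415, plus strand: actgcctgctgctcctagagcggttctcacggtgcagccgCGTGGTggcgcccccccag
Rpl18, chr7:52970753-52970826, plus strand: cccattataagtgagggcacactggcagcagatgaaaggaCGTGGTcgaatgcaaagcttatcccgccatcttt

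The variant lay 180 bp from the peak centre in Rpl19, 46 bp in Rpl10a and 62 bp in the upstream peak of Rpl18. The hexamer TGACGT, the core of the site of CREB and ATF factors, was in 12 of the 54 peaks (22.2%) against 17.1% of the 5486. Of these 12, 8 also held TGTGGT and 4 did not, while 6 peaks held TGTGGT alone and 36 neither. Near protein-coding starts 288 of the 1843 peaks with TGTGGT (15.6%) held TGACGT. These are matches of letters in sequences of unequal length and are given as a description.

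Seen from the promoter, the hexamer was within 250 bp of the TSS of 14 core genes (18.4%), against 23.3% of protein-coding promoters. A peak within 5 kb was called at 13 of these 14, Rps15a being the exception, and at 40 of the 62 without it (64.5%). Over all protein-coding genes the share with a peak was 28.7% where the promoter held the hexamer and 31.9% where it did not.

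Genes with 2 or more peaks within 5 kb numbered 13 of 76 in the core set. Over all protein-coding genes they numbered 1746 of 22367, and over CpG-rich ones 1259 of 10853. Rpl8 and Rpl23a had 3 each, and Rpl4, Rpl7, Rpl12, Rpl13a, Rpl18, Rpl27, Rpl35, Rpl36, Rplp2, Rps2 and Rps9 had 2. Beyond 1 kb there were 14 pairs of a core gene and a peak, and in 10 of them the TSS of another gene was nearer. Rpl36 had the highest score of these, 55.82 at 3642 bp upstream, where the centre was 18 bp from the start of 2410015M20Rik, while its own promoter peak scored 5.36. The peak of 12.69 near Rps2 and Rpl3l was 2 bp from the start of Ndufb10, a gene of respiratory complex I. The second peak of Rpl27 (20.06) was 112 bp from the interferon-induced Ifi35, and that of Rpl35 (14.20) was 51 bp from the actin-complex gene Arpc5l.

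Only in 4 of the 14 pairs was the ribosomal protein gene nearest, namely both peaks of Rpl12 (5.96 and 11.24, 2326 and 3703 bp downstream), the peak of 18.13 at Rps9 (1497 bp downstream) and the peak of 3.17 in exon 5 of Rpl8. These distances are to the nearest annotated start of the gene. Both peaks of Rpl12 and that of Rps9 lay beyond the 3′ end of the gene. With the requirement that the gene itself have the nearest TSS, 47 of the 76 core genes (61.8%) kept a peak, against 25.9% of protein-coding genes. Next to the 5 kb limit on the inside were Rps6-ps1 (4750 bp, score 5.30) and, among other pairs, the second peak of Rplp2 (4271 bp, score 3.69). Next outside it were further peaks of genes already counted, at 5235 bp from Rpl23a, 5313 bp from Rpl17 and 5392 bp from Rpl3. Between 5 and 10 kb 2 more members had their nearest peak, Rpl27a-ps1 at 7873 bp and Rps29 at 9464 bp.

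Several core genes share their promoter region with a gene on the opposite strand. A divergent start within 1 kb was annotated for 14 core genes, and 11 of them had a peak, among them Rpl7a with Med22, Rpl15 with Nkiras1, Rps18 with Vps52, Rps25 with Trappc4 and Rps28 with Ndufa7. The 3 without a peak were Rpl9 with Lias, Rps10 with Gm15420 and Rps29 with AC099934.1. Of the 62 core genes with no divergent start 42 had a peak (67.7%). Over protein-coding genes with a divergent start 57.3% had one, and over the CpG-rich among them 60.1%.

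SnoRNA genes lay inside 30 core genes. A peak was within 5 kb of 23 of these 30 hosts (76.7%) and of 30 of the 46 other core genes (65.2%). Over all protein-coding genes 147 of 269 snoRNA hosts had a peak, where 31.1% of all protein-coding genes had one. Among core hosts the strongest peak of each bound gene had a median score of 18.01, and among the other core genes of 12.7. The difference was not tested, since the genes share 1 peak list.

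The 23 core genes without a peak were spread over both subunits. In the large subunit these were Rpl5, Rpl9, Rpl10, Rpl14, Rpl23, Rpl26, Rpl32, Rpl34, Rpl36a, Rpl37a, Rpl38, Rpl39 and Rplp1, and in the small subunit Rps4x, Rps6, Rps10, Rps15a, Rps20, Rps21, Rps24, Rps26, Rps29 and Rpsa. Their nearest peak was 9464 bp (Rps29) to 902593 bp (Rps24) away, with a median of 17042 bp, and 5 of them had none within 50 kb. These 5 were Rpl36a, Rpl37a, Rps6, Rps20 and Rps24. All 4 X-linked core genes, Rpl10, Rpl36a, Rpl39 and Rps4x, were without a peak, where 10.9% of X-linked protein-coding genes had one, as did 24.6% of CpG-rich X-linked genes and 32% of autosomal genes. On the autosomes 53 of 72 core genes (73.6%) had a peak.

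The promoters of the genes without a peak were CpG-rich in 21 of 23, and those of genes with one in 50 of 53. Median CpG observed over expected was 0.920 without and 0.886 with a peak, and GC was 60.3% and 60.7%. The core of the ETS site, CCGGAAG on either strand, was in 12 of the 23 promoters without a peak and in 20 of the 53 with one, against 14.3% of protein-coding promoters. The cores AAGATGG of YY1, a factor with known sites in ribosomal protein promoters, and GCATGCG of NRF1 were in 4 and 4 of the 23 and in 12 and 7 of the 53, against 10.9% and 5.45% of protein-coding promoters. TATAAA was in 3 of the 23 and 7 of the 53, against 16.6% of protein-coding promoters. A C at the annotated start followed by 4 pyrimidines, the TOP form, was found at 4 core genes (5.26%), all without a peak, and at 1.97% of protein-coding genes. Over protein-coding genes the form stood at 2.03% of those with and 1.94% of those without a peak. That feature needs a start that is exact to the base, and how exact the annotated starts are was not tested.

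By role, the genes with and without a peak were mixed. The P stalk recruits elongation factors to the ribosome. Its base Rplp0 had a promoter peak of 13.72 at 68 bp upstream, Rplp2 had 12.19 at 14 bp upstream, and Rplp1 had none within 32292 bp. Rpl5 and Rpl11 bind 5S rRNA and, outside the ribosome, Mdm2. Rpl11 had a weak peak of 4.79 in its first intron, and Rpl5 had none within 14992 bp.

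Genes of which the human counterparts are mutated in Diamond-Blackfan anaemia numbered 13 on the list used, and 7 had a peak (53.8%), all within 1 kb, against 31.1% of protein-coding genes, 48.3% of CpG-rich ones and 69.7% of the core set. The highest of the 7 was Rpl15 with 18.95, whose centre was nearer to the start of Nkiras1, and others were Rps28 (10.53), Rpl35a (9.16), Rps7 (8.49), Rps19 (5.36) and Rpl11 (4.79). None of the 7 reached the upper quartile of scores, and Rpl5, Rpl26, Rps10, Rps24, Rps26 and Rps29 had no peak. The list used is not complete, so these counts and scores hold for its 13 genes alone.

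A further list held 8 genes of ribosomal proteins with added or specialised roles, and it left out Rpl5 and Rpl11. Of these 8 genes 4 had a peak (50%), a share near the 48.3% of CpG-rich protein-coding genes. Rpl22 had the highest score of the core set (86.99), and Rpl13a had 45.20. Rps3, a DNA repair and NF-kB cofactor, had 10.53 at 3 bp from its TSS, and Rps27a, which is made as a fusion with ubiquitin, had 3.17. No peak was called at Rps6, the substrate of S6 kinases, Rpsa, the laminin receptor, Rpl23, an Mdm2 binding protein, or Rpl38, which is needed for translation of Hox mRNAs.

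Among the 9 paralogs and other genes 5 had a peak (55.6%), against 31.1% of protein-coding genes and 48.3% of CpG-rich ones. Rpl36al, the autosomal relative of the X-linked Rpl36a, had 32.29 at 99 bp downstream of its TSS in its single exon (chr12:70283718-70285070, minus strand), while Rpl36a had no peak within 422220 bp. Rps27l, a p53-responsive relative of Rps27, had 18.13, Rps19bp1 had 7.20 at 3 bp, and Rpl22l1, the relative of Rpl22, had 5.96 at 250 bp in intron 1. Rpl3l, the muscle form of Rpl3, had only the peak at Ndufb10. Rpl7l1, Rpl10l, Rpl39l and Rps4y2 had none.

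The genes with pseudogene symbols had few peaks. Of the 53, 4 had a peak within 5 kb (7.55%) and 0 within 1 kb, and 4 had CpG-rich promoters. Among CpG-poor protein-coding genes 14.9% had a peak within 5 kb and 9.08% within 1 kb, and among all protein-coding genes 31.1% and 24.9%. The 4 peaks were at Rpl12-ps1 (18.45, 2351 bp upstream), Rpl37-ps1 (11.24, 3906 bp downstream), Rpl21-ps11 (11.24, with Ankrd35 nearer) and Rps6-ps1 (5.30, with Gpaa1 nearer). A separate set of 107 ribosomal protein symbols is typed as pseudogenes in the annotation and was not among the members, and 12 of these (11.2%) had a peak within 5 kb and 0 within 1 kb. Reads were aligned uniquely, and how far near-identical copies lost reads to that was not tested.

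Other lists of the translation machinery differed in their shares. Elongation factor and other TOP mRNA genes (11 of 17, 64.7%) and ribosome biogenesis genes (26 of 39, 66.7%) were near the core set (69.7%). Mitochondrial ribosomal protein and initiation factor genes were nearer to CpG-rich protein-coding genes (48.3%). Of 77 mitochondrial ribosomal protein genes, which encode the separate ribosome of the mitochondrion, 36 had a peak within 5 kb (46.8%), 69 had CpG-rich promoters (89.6%), and their promoter peaks had a median score of 17.2 (n = 36 peaks). Of 58 initiation factor genes 30 had a peak (51.7%), with a median promoter score of 11.5 (n = 30 peaks). These lists and the core set share 1 peak list, and the differences between their shares were not tested.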

How the data were processed

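ChIP-seq reads were, per the methods, aligned uniquely to mm9 with bowtie, and bound regions were called with MACS2 on both Runx3 samples against both input samples; base calling with CASAVA 1.8 is named in the submitters' processing notes. Versions of bowtie and MACS2, the threshold and the treatment of duplicate reads are not given in the sources used here. The authors deposited 1 list with a position and a score for each peak. The score has no stated unit and was compared only within the list. Depth of each sample was not analysed here.

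Genes and TSS were those of GENCODE M1 on NCBIM37 (mm9), leaving out mitochondrial genes, and promoter sequence was read from the same assembly. Peaks were placed by their centre, with distances signed by the strand of the gene. Positions are counted from 1. The symbol rule follows the annotation's own gene types, which is why 53 genes with -ps symbols are members. Of 77 core symbols listed, 76 were annotated as protein-coding, and Rpl41 was not. Exons and introns were numbered in the transcript with the longest coding sequence. Motif searches covered both strands, over the full width of a peak or over 250 bp on each side of 1 TSS per gene.

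The members and lists were chosen with earlier results of these data known. Named genes were those of the 10 highest scoring peaks, with 2 or more peaks, next to the 5 kb limit, in a role group, or paralogs, and the rest by name; genes of the weakest promoter peaks, of divergent pairs and of the snoRNA and promoter counts, and those next in order of score, were named after their values were seen. A few genes that the rule would name are left out of the text and of the plot by gene. No test was made, since the pooled list gives no value per replicate. Wilson intervals of 95% cover counting error only and treat genes or peaks as independent. Alternatives were other distances, TSS sets, assignment rules and score limits, and members without -ps symbols. Peak placement and motif search were tested on simulated data. Computation used Python 3.11.15, numpy 2.4.6, pandas 2.3.3, scipy 1.17.1, pysam 0.24.0 and matplotlib 3.10.9.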

Additional observations from a re-analysis of the deposited data

How the results depend on the processing

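No paired analysis was possible because the peaks were called once on both Runx3 samples, and for the same reason no replicate could be left out. The 62 members with a peak became 34 with peaks at or above the median score and 16 with peaks at or above the upper quartile, and the 75 peaks at members became 36 and 17. These follow from the smaller number of peaks kept. Of the 75 peaks 33.3% held TGTGGT, which was 21.3% in the 200 bp around the centre and 65.3% with C or T at base 1 and base 3, as the narrower window and wider motif make certain in direction. Peaks within 1 kb of a TSS made up 77.3% of the 75 peaks and 89.3% of the 56 at members with the nearest TSS. In the other 27 of 34 alternatives counts, shares and medians moved by less than the limits set for them. The number of members with a peak was 55 at 1 kb and 64 at 10 kb, 53 with the nearest TSS only, and 58 without -ps symbols, an alternative chosen after seeing the data. The median score of the 75 peaks, 11.2, was between 11.2 and 12.1 in its alternatives. The depth of the samples limits how weak a peak could be called.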

Other observations

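Ribosomal proteins that the symbol rule leaves out had peaks too. Fau, which encodes Rps30 fused to a ubiquitin-like protein, had a peak of 49.02 centred 36 bp upstream of its TSS, above all but 5 genes of the core promoter order. Gnb2l1, the scaffold protein of the small subunit, had a peak of 7.84 at 93 bp.

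Among 17 genes of elongation factors and other TOP mRNAs 11 had a peak (64.7%), all of them within 1 kb. Eef1g had 27.64, Eef2, the translocase, 21.42, Eef1d 19.24 and Hnrnpa1 18.13, while Eef1a1, which delivers aminoacyl-tRNA, had only 3.17. Eef1b2, Npm1, Nap1l1, Eif3e, Eif3f and Pfdn5 had none. Among 39 ribosome biogenesis genes 26 had a peak (66.7%). The highest was the rRNA methyltransferase gene Nop2 with 85.79 at 129 bp upstream, followed by Nat10 (33.24), Nop56 (30.41), Gnl3 (26.73) and Ncl (24.06). Of the RNA polymerase I subunit genes Polr1a had a peak (9.84, 193 bp upstream) and Polr1b and Polr1c had none, and of its factors Rrn3 had a peak (9.16, 48 bp upstream) and Ubtf had none. Of protein-coding genes 31.1% had a peak within 5 kb, of CpG-rich ones 48.3% and of the core set 69.7%. The differences between these shares were not tested.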
